A study of Rattus norvegicus with 9 samples.

Results

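The Wnt ligands, their Frizzled and LRP receptors and the secreted proteins that bind ligands or receptors were read in whole liver of 9 rats, 1 array per rat. Members were the genes whose single symbol begins with Wnt, Fzd, Sfrp, Dkk or Rspo and a digit, or is Frzb, Wif1, Lrp5, Lrp6, Znrf3 or Rnf43. This gave 32 of the 14377 genes that a single-symbol probe set reads: 13 Wnt ligands, 6 Frizzleds, 2 co-receptors, 2 R-spondins, 8 secreted inhibitors and the ubiquitin ligase Znrf3, while no single-symbol probe set was listed for Rnf43. The study asked what rottlerin, an activator of the BK potassium channel, does to rats with fibrosis of the liver brought on by the toxin carbon tetrachloride (CCl4). The animals were male Sprague–Dawley rats, of an age not given in the sources used here. The vehicle group held 3 rats without CCl4. The CCl4 group held 3 rats injected intraperitoneally with CCl4 in olive oil 2 times per week for 8 weeks. The CCl4+Rot group held 3 rats on the same CCl4 course that also received rottlerin intraperitoneally, at 2.5 mg/kg, 2 weeks into the course, and no rats given rottlerin without CCl4 were analysed here.

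Wnt proteins are lipid-modified ligands that bind a Frizzled receptor together with the co-receptor Lrp5 or Lrp6, which stabilises beta-catenin and lets it act with TCF/LEF factors on target genes. Secreted inhibitors act outside the cell: the Sfrp proteins, Frzb and Wif1 bind the ligands, and several Dkk proteins block Lrp5 and Lrp6. R-spondins raise the number of receptors at the surface by keeping the ubiquitin ligases Znrf3 and Rnf43 from removing them. In healthy liver, Wnt2, Wnt9b and Rspo3 from endothelial cells around the central vein maintain the pericentral program of hepatocytes.

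The promoters of Wnt2 and Wnt4 are shown because these were the ligands detected on most arrays and the ones on which the ligand results below turn. Each sequence runs from 250 bases before to 50 bases after the start site that RefSeq lists in build GRCr8, and capitals mark the GC box GGGCGG or its reverse complement. The window of Wnt2 is chr4:47340235-47340534 on the minus strand, and that of Wnt4 is chr5:154797200-154797499 on the plus strand.
Wnt2: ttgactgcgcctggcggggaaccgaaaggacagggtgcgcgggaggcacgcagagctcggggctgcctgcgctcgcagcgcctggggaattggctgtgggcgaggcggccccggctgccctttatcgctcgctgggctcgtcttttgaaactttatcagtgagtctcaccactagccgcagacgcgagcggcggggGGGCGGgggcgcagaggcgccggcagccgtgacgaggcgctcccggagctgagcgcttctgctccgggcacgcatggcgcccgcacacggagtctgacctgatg
Wnt4: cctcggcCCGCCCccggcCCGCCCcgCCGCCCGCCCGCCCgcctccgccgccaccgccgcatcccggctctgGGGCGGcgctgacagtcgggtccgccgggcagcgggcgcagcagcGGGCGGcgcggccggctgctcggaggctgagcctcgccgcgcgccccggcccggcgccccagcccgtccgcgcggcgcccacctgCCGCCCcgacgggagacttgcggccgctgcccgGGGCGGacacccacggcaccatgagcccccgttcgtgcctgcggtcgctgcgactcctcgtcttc
The Wnt2 window held 70.0% G and C, 35 CpG and 1 GC box, which starts 54 bases before the start site. The Wnt4 window held 83.3% G and C, 53 CpG and 9 GC boxes, some of which overlap. Promoters were listed for 21 of the 32 members. A GC box on either strand was found in 11 of these 21, and in 34.9% of all 27457 promoters listed. The TCF/LEF core, searched as CTTTGAT or CTTTGAA on either strand, was found in 0 of the 21 and in 8.64% of all promoters, and its absence says only that these letters are not in these windows.

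Values are log2 signals, with a detection call of present, marginal or absent for each array, and where several probe sets read a gene, the brightest on average stands for it. Levels of different genes are not compared, since probe sets differ in brightness. CCl4 replicate 3 stood apart: it had 12714 probe sets called present, against 15550 to 16849 on the other 8 arrays, and a median log2 signal of 7.81, against 6.79 to 7.01. Its hepatocyte marker mean was 14.07, below the 14.59 to 14.76 of the other arrays, and results that rest on it are given with and without it. The labelled tissue matched the markers: all 11 hepatocyte genes listed, albumin among them, were called present on every array. Nothing in the labels says how the 3 rats of each group were chosen for the arrays, and p-values measure only the spread between these samples.

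A smaller share of the members than of all genes was detected. Of the 32 members, 11 (34.4%) were detected, meaning called present on at least 5 of 9 arrays, against 9245 (64.3%) of all 14377 genes. They were the inhibitors Sfrp1, Dkk3 and Frzb, the ligands Wnt2 and Wnt4, the receptors Fzd1 and Fzd4, the co-receptors Lrp5 and Lrp6, the R-spondin Rspo3 and Znrf3. A further 6 members were called present on 1 to 4 arrays, namely Dkk2, Wif1, Sfrp2, Sfrp4, Wnt5a and Fzd3. The remaining 15 members (46.9%) were called present on 0 arrays, against 25.4% of all genes. Of these 15, 10 were ligands (Wnt1, Wnt2b, Wnt5b, Wnt6, Wnt7a, Wnt8b, Wnt9a, Wnt10a, Wnt11 and Wnt16), 3 were receptors (Fzd2, Fzd5 and Fzd6), and the other two were Sfrp5 and Rspo1. The number of members called present per array was 9 to 14. An absent call means that a probe set was not above its own mismatch background here, not that the gene is off in every liver cell.

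**Figure D1:**
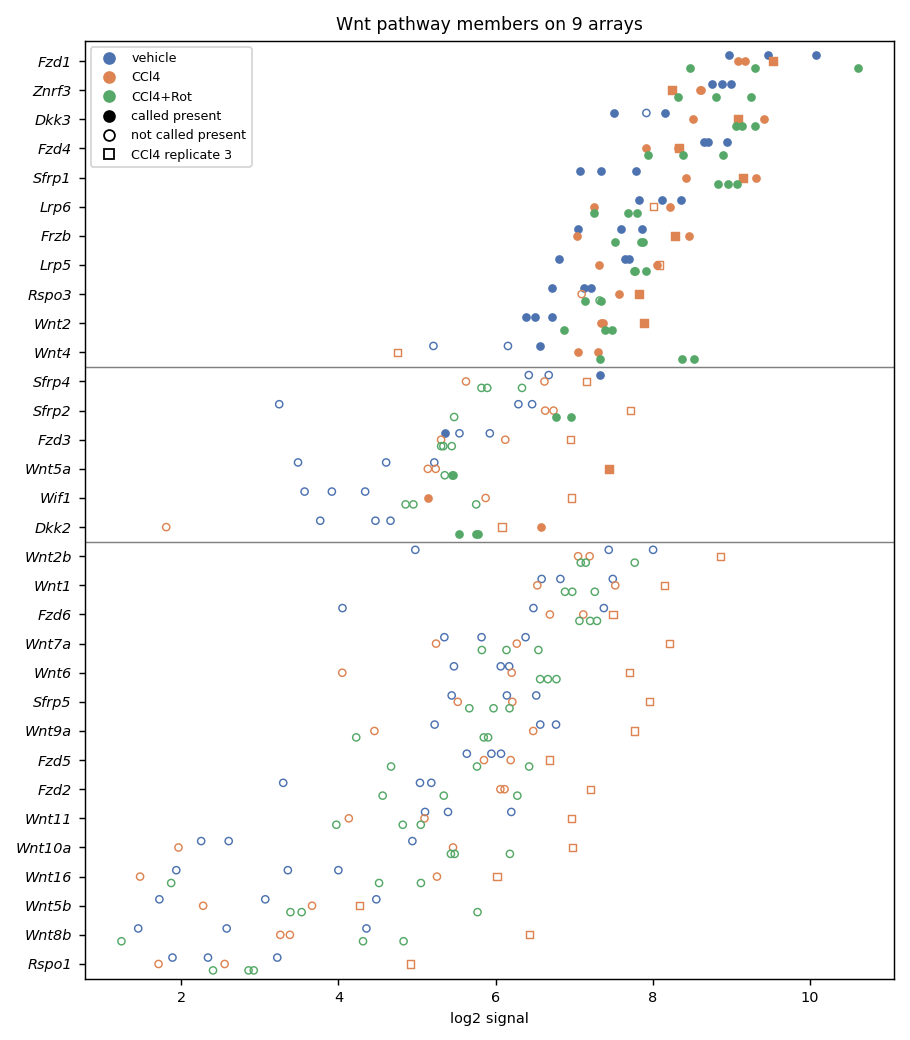
Log2 signal (horizontal axis) of each of the 32 members on each of the 9 arrays, coloured by group; filled symbols were called present, squares are CCl4 replicate 3, and grey lines separate the 11 detected, 6 partly detected and 15 undetected members. For Sfrp1, Dkk3 and Wnt2 all vehicle arrays lie below every CCl4 and CCl4+Rot array, and in the lowest block the square lies farthest to the right for 14 of 15 genes.

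Across all members, no call was made by limma with all 9 arrays, a call being a difference of 1.5-fold or more with a Benjamini-Hochberg adjusted p under 0.05. The count was 0 of 32 for CCl4 against vehicle, where 0% of all genes were called, 0 for CCl4+Rot against CCl4, where 0% were called, and 0 for CCl4+Rot against vehicle, where 0.0209% were called. In a robust limma fit that lets the spread depend on signal, 2 members passed for CCl4 against vehicle, Sfrp1 and Dkk3, and 1.62% of all genes did. The same 2 genes passed for CCl4+Rot against vehicle, where 1.17% of all genes did. No member passed for CCl4+Rot against CCl4, where 0.00696% did. At an unadjusted limma p below 0.05, 5 members were higher with CCl4 than vehicle (Sfrp1, Dkk3, Wnt2, Wif1 and Fzd2), against 9.49% of all genes, and 0 were lower, against 4.01%. Between CCl4+Rot and CCl4, 1 member was higher at that level (Wnt4), against 2.1% of all genes, and 0 were lower, against 3.4%. Between CCl4+Rot and vehicle, 5 were higher (Sfrp1, Dkk3, Wnt2, Wnt4 and Wif1), against 7.46%, and 0 were lower, against 2.33%. The comparisons share arrays, so their counts are not independent of each other. An exact permutation test of 3 arrays against 3 could not go below a two-sided p of 0.1.

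The secreted inhibitors Sfrp1 and Dkk3 were higher in both CCl4 groups than in vehicle-treated rats, and their values in CCl4+Rot rats lay within the range of the CCl4 rats' values. Sfrp1 encodes a secreted Frizzled-related protein that binds Wnt ligands (GRCr8 chromosome 16, 75278325 to 75316736). Its log2 signal was 7.78, 7.07 and 7.34 in vehicle-treated rats, 8.42, 9.32 and 9.14 with CCl4, and 9.07, 8.83 and 8.96 with CCl4+Rot, and it was called present on all 9 arrays. All 6 arrays of CCl4-treated rats lay above all 3 vehicle arrays. The difference between CCl4 and vehicle was 1.56 ± 0.287 (log2, SE, 3 arrays per group), or 2.95-fold, with an adjusted p of 0.186 by limma and 0.0159 by the robust fit. CCl4+Rot exceeded vehicle by 1.55 (2.93-fold; adjusted p of 0.191 and 0.0136 in the same fits of limma). Between CCl4+Rot and CCl4 the difference was -0.01, with a 95% interval of -0.68 to 0.66. Without CCl4 replicate 3, Sfrp1 was higher with CCl4 by 1.47, and the robust limma fit gave an adjusted p of 0.0407.

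The 2 other probe sets of Sfrp1 also read higher with CCl4. One was called absent on every array, so it has no fold. It read 3.59 to 3.96 in vehicle, 5.74 to 6.68 with CCl4 and 5.83 to 6.75 with CCl4+Rot. The other, present on 4 arrays, differed by 1.16 between CCl4 and vehicle, and its groups overlapped.

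Dkk3 encodes a secreted glycoprotein of the Dickkopf family whose action on Lrp5 and Lrp6 is less clear than that of other Dkk proteins (chromosome 1, 175672834 to 175715867). Its log2 signal was 8.15, 7.51 and 7.92 with vehicle, 8.51, 9.42 and 9.08 with CCl4, and 9.13, 9.06 and 9.31 with CCl4+Rot, and 8 of 9 calls were present. As for Sfrp1, every array of a CCl4-treated rat lay above every vehicle array. The difference was 1.15 ± 0.276 (SE) for CCl4 against vehicle, or 2.21-fold, with an adjusted p of 0.231 by limma and 0.0409 by the robust fit. For CCl4+Rot against vehicle it was 1.31, or 2.47-fold, with an adjusted p of 0.219 by limma and 0.0262 by the robust fit. CCl4+Rot differed from CCl4 by 0.16, with an interval of -0.48 to 0.80. Without CCl4 replicate 3, the CCl4 difference was 1.11, and its adjusted p by the robust limma fit was 0.0878, so the call was not kept. Whether leaving out another array would also undo the call in the robust fit was not tested. The second Dkk3 probe set was absent on every array, and its groups overlapped in every comparison.

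Stellate cell and myofibroblast markers moved beside these inhibitors, while the vehicle and CCl4 ranges of the other lists given here overlapped. Between CCl4+Rot and vehicle, the macrophage list separated too, with all 9 of its genes higher with CCl4+Rot. The mean of 17 stellate cell and myofibroblast genes, collagens and Acta2 among them, was 8.44 to 8.78 in vehicle, 9.38 to 10.06 with CCl4 and 9.77 to 9.85 with CCl4+Rot, and all 17 genes were higher with CCl4. In that list 14 genes were present on every array and Thy1 on none. Without CCl4 replicate 3, the CCl4 difference of Tagln turned to -0.13 and that of Acta2 went from 0.78 to 0.34. Macrophage genes, 8 of 9 of them present on every array and Itgam on 0, averaged 10.24 to 10.52 with vehicle, 10.25 to 10.87 with CCl4 and 10.98 to 11.14 with CCl4+Rot. Endothelial genes, 10 of 12 of them present on every array and Flt1 on 0, averaged 9.07 to 9.14, 9.08 to 9.30 and 9.10 to 9.37. The 11 T and NK cell genes, 6 of them (Cd3d, Cd2, Cd4, Cd8a, Cd8b and Lck) present on 0 arrays, averaged 5.62 to 6.57, 5.76 to 7.20 and 6.22 to 6.79. The part of these cells in the members' values was not tested. In bulk tissue, more cells of a type and more RNA per cell cannot be told apart.

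**Figure D2:**
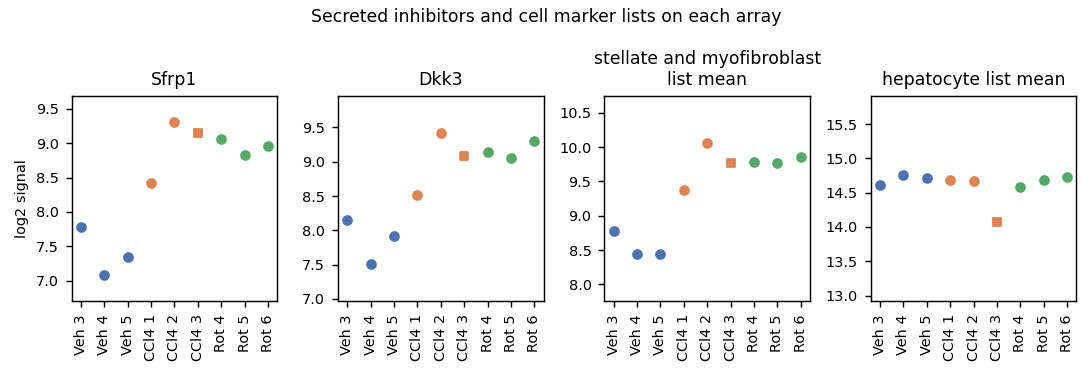
Log2 signal of Sfrp1 and Dkk3, and mean log2 signal of the stellate and myofibroblast list (17 genes) and the hepatocyte list (11 genes), on each of the 9 arrays (Veh, vehicle; Rot, CCl4+Rot; each panel spans 3 log2 units and the square is CCl4 replicate 3). The first 3 panels are low on the vehicle arrays and high on the other 6, and the hepatocyte mean is lowest on CCl4 replicate 3.

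The other inhibitors were less clear. Frzb, also called Sfrp3, read 7.59, 7.05 and 7.86 with vehicle, 7.03, 8.45 and 8.28 with CCl4, and 7.85, 7.52 and 7.88 with CCl4+Rot. The groups overlapped in every comparison, and the CCl4 difference of 0.42 had an adjusted limma p of 0.684. Its second probe set, called present on all 9 arrays too, separated the groups: 6.63, 6.24 and 6.76 with vehicle, 7.18, 8.50 and 7.79 with CCl4, and 7.64, 7.29 and 7.73 with CCl4+Rot. That is a CCl4 difference of 1.28 ± 0.342 (SE), with an adjusted p of 0.0971 by the robust limma fit, so the Frzb probe sets disagree in size.

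Dkk2, which binds Lrp6, was called present on 0 vehicle arrays, 1 CCl4 array and all 3 CCl4+Rot arrays. It is described array by array only because of its CCl4+Rot calls, a choice that favours high values in that group. Its values were 3.77, 4.47 and 4.66 with vehicle, 1.81, 6.58 and 6.08 with CCl4, and 5.53, 5.74 and 5.78 with CCl4+Rot. The CCl4 arrays spread over more than the whole range of the other groups, while all CCl4+Rot arrays lay above all vehicle arrays. The bound for CCl4+Rot over vehicle was 2.61-fold, with an adjusted limma p of 0.862 and a log2 interval of -1.24 to 4.01. For CCl4 over vehicle the bound was 1.44-fold, but without CCl4 replicate 3 the log2 difference of 0.52 turned to -0.11. For such a bound, also written as at least, only the group without present calls was floored. Each of its signals below the lowest value among present probe sets of that array was raised to that value. The other group's mean kept its arrays without a present call, and the spread between arrays is not covered.

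Wif1, the Wnt inhibitory factor, read 3.92, 4.34 and 3.57 with vehicle, 5.87, 5.13 and 6.97 with CCl4, and 4.85, 5.75 and 4.95 with CCl4+Rot. All CCl4 and CCl4+Rot arrays lay above the vehicle arrays, but only CCl4 replicate 2 was called present. For CCl4 over vehicle the bound was 4.14-fold, with an adjusted p of 0.231 by limma. Without CCl4 replicate 3 the log2 difference was 1.56 instead of 2.05. Sfrp2 was called present on 2 CCl4+Rot arrays, and the bound for this group over vehicle was 1.98-fold, with overlapping arrays. That difference rests on vehicle replicate 3, at 3.25 against 6.29 and 6.46 on the other vehicle arrays: without it the log2 difference of 1.07 was 0.025. Sfrp4 was called present on 1 vehicle array. The bound for vehicle over CCl4+Rot was 1.73-fold, and the CCl4+Rot arrays lay below all vehicle arrays. Vehicle and CCl4 overlapped for Sfrp4, and their difference ran from -0.69 to 0.080 as arrays were left out in turn. A second Sfrp4 probe set, present on 2 arrays, differed by -0.20 between CCl4+Rot and vehicle, and its groups overlapped in every comparison. Sfrp5 was absent on all arrays.

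Among the ligands, Wnt2 on its chosen probe set was higher in both CCl4 groups than with vehicle, and Wnt4 was highest with CCl4+Rot. Wnt2, an endothelial ligand in liver (chromosome 4, 47294300 to 47340284, where the first promoter above lies), read 6.50, 6.39 and 6.72 with vehicle, 7.36, 7.34 and 7.89 with CCl4, and 7.39, 7.49 and 6.88 with CCl4+Rot. All 6 CCl4-treated rats lay above all vehicle-treated rats. The CCl4 difference was 0.99 ± 0.242 (SE), or 1.99-fold, with an unadjusted limma p of 0.0038, an adjusted p of 0.233 and a robust adjusted p of 0.148, so it did not pass. Without CCl4 replicate 3 it was 0.81. The CCl4+Rot difference from vehicle was 0.71, with an adjusted limma p of 0.462.

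A second Wnt2 probe set, called present on 5 arrays, read 5.75, 5.49 and 6.43 with vehicle, 6.89, 7.004 and 7.16 with CCl4, and 6.41, 5.95 and 6.37 with CCl4+Rot. On it the CCl4 arrays lay above all others, but CCl4+Rot and vehicle overlapped, with a difference of 0.35 (unadjusted limma p of 0.233). CCl4+Rot differed from CCl4 by -0.77 (unadjusted limma p of 0.0234, robust adjusted p of 0.693), against -0.28, with an interval of -0.85 to 0.28, on the chosen probe set.

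Wnt4 (chromosome 5, 154797245 to 154818565, with the GC-rich promoter shown above) is a ligand best known from kidney and reproductive tract development. It read 6.56, 6.16 and 5.21 with vehicle, 7.05, 7.30 and 4.75 with CCl4, and 7.33, 8.38 and 8.52 with CCl4+Rot. Calls were present on 1 vehicle array, 2 CCl4 arrays and all 3 CCl4+Rot arrays. Wnt4 is thus described array by array only because of its CCl4+Rot calls, a choice that favours high values in that group. All CCl4+Rot arrays lay above all others, the nearest CCl4 array by little, and CCl4 replicate 3 was the lowest of the 9. CCl4+Rot exceeded CCl4 by 1.71 ± 0.724 (SE), or 3.27-fold, with an unadjusted p of 0.0477 and an adjusted p of 0.750 by limma. Without CCl4 replicate 3 the difference was 0.90, with an unadjusted limma p of 0.119. Against vehicle, CCl4+Rot was higher by 2.10, or 4.29-fold, with an adjusted p of 0.471 by limma and 0.180 by the robust fit. With CCl4 replicate 3 left out of the robust fit, that adjusted p was 0.0360, a setting chosen after the data were seen.

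Wnt5a, a ligand that mostly acts without beta-catenin, was called present on CCl4 replicate 3 and on 2 CCl4+Rot arrays. It read 4.61, 5.22 and 3.49 with vehicle, 5.14, 5.24 and 7.44 with CCl4, and 5.46, 5.45 and 5.35 with CCl4+Rot. Every CCl4+Rot array lay above every vehicle array, though little above vehicle replicate 4. The bound for CCl4+Rot over vehicle was 1.97-fold, and without vehicle replicate 5 the log2 difference of 0.98 was 0.50. For CCl4 over vehicle the bound was 2.83-fold with the groups overlapping, and the log2 difference of 1.502 was 0.75 without CCl4 replicate 3.

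**Figure D3:**
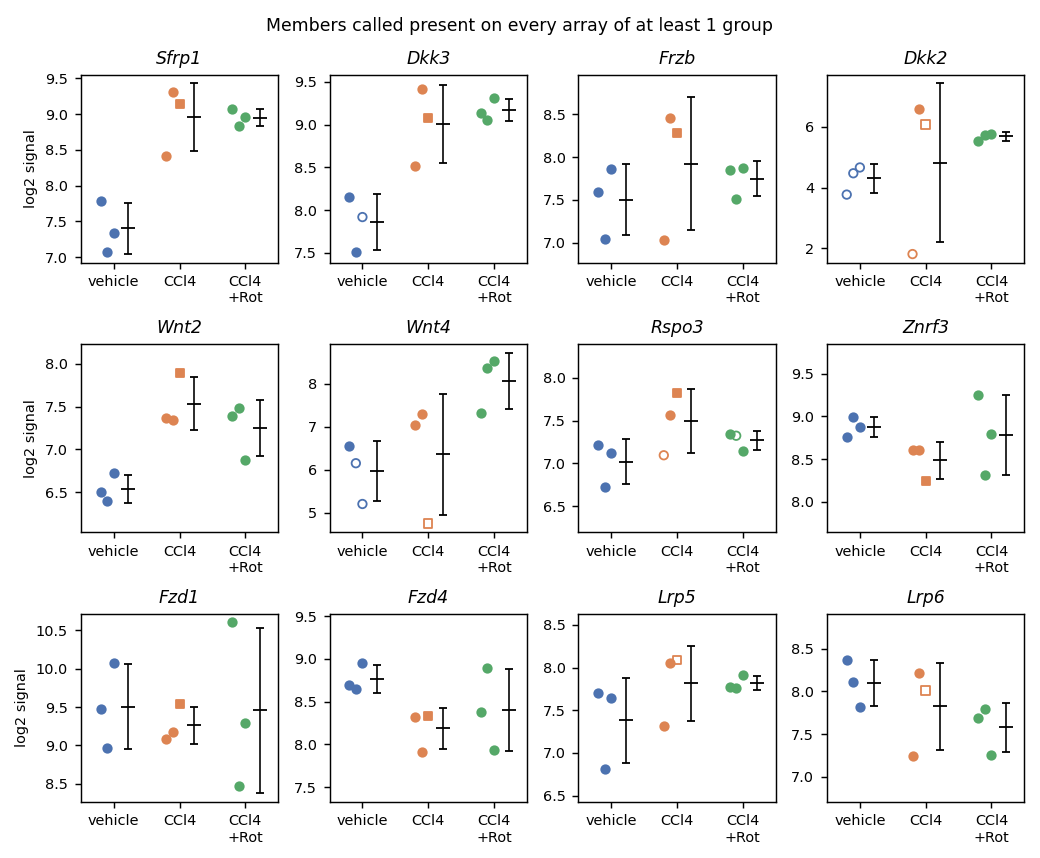
Log2 signal by group for the 12 members called present on every array of at least 1 group; points are arrays (filled, called present; square, CCl4 replicate 3) and bars show the mean ± SD of 3 arrays, and the vertical scale differs between panels. Sfrp1, Dkk3 and Wnt2 show the 3 vehicle arrays below all others, and Wnt4 shows CCl4 replicate 3 as the lowest array.

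The detected Frizzled and co-receptor members differed less, and no Frizzled or co-receptor member, detected or not, passed either limma fit. Fzd4, the receptor of Norrin and of several Wnts and a gene of endothelial cells, read 8.70, 8.65 and 8.95 with vehicle, 8.33, 7.91 and 8.33 with CCl4, and 8.38, 8.90 and 7.94 with CCl4+Rot. The CCl4 arrays lay below all vehicle arrays, and the difference was -0.58 ± 0.270 (SE), with an adjusted p of 0.439 by limma. The second Fzd4 probe set gave -0.32 with overlapping groups. Fzd1 read 9.47, 8.97 and 10.07 with vehicle, 9.08, 9.17 and 9.53 with CCl4, and 10.61, 8.47 and 9.30 with CCl4+Rot. The CCl4+Rot arrays of Fzd1 held both the highest and the lowest value of the 9. Fzd3 was called present on 1 vehicle array only.

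The co-receptors bind the Wnt and Frizzled complex and are the targets of Dkk proteins. Lrp5 read 7.70, 6.81 and 7.64 with vehicle, 7.31, 8.05 and 8.09 with CCl4, and 7.77, 7.76 and 7.91 with CCl4+Rot. CCl4 differed from vehicle by 0.43, with an interval of -0.29 to 1.16. The second Lrp5 probe set was absent on every array, so it has no fold, and it went the other way. It read 6.15 to 6.86 with vehicle, 5.27 to 5.93 with CCl4 and 6.38 to 6.94 with CCl4+Rot. Lrp6 read 8.36, 8.11 and 7.82 with vehicle, 7.25, 8.22 and 8.01 with CCl4, and 7.69, 7.80 and 7.26 with CCl4+Rot. Each CCl4+Rot array of Lrp6 lay below each vehicle array, with a mean difference of -0.52 and an adjusted limma p of 0.758.

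Rspo3 and Znrf3 both act on receptor turnover, in opposite directions. Rspo3 read 7.21, 6.72 and 7.12 with vehicle, 7.09, 7.57 and 7.83 with CCl4, and 7.34, 7.32 and 7.14 with CCl4+Rot. These groups overlapped, and the CCl4 difference of 0.48 had an interval of -0.07 to 1.03. The second Rspo3 probe set, absent on every array, read 2.67 to 3.35 with vehicle, 3.60 to 4.25 with CCl4 and 1.71 to 3.44 with CCl4+Rot. Znrf3 read 8.76, 8.99 and 8.88 with vehicle, 8.61, 8.61 and 8.24 with CCl4, and 9.25, 8.32 and 8.80 with CCl4+Rot. The CCl4 arrays of Znrf3 lay below the vehicle arrays, with a difference of -0.39 and an adjusted limma p of 0.560.

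**Figure D4:**
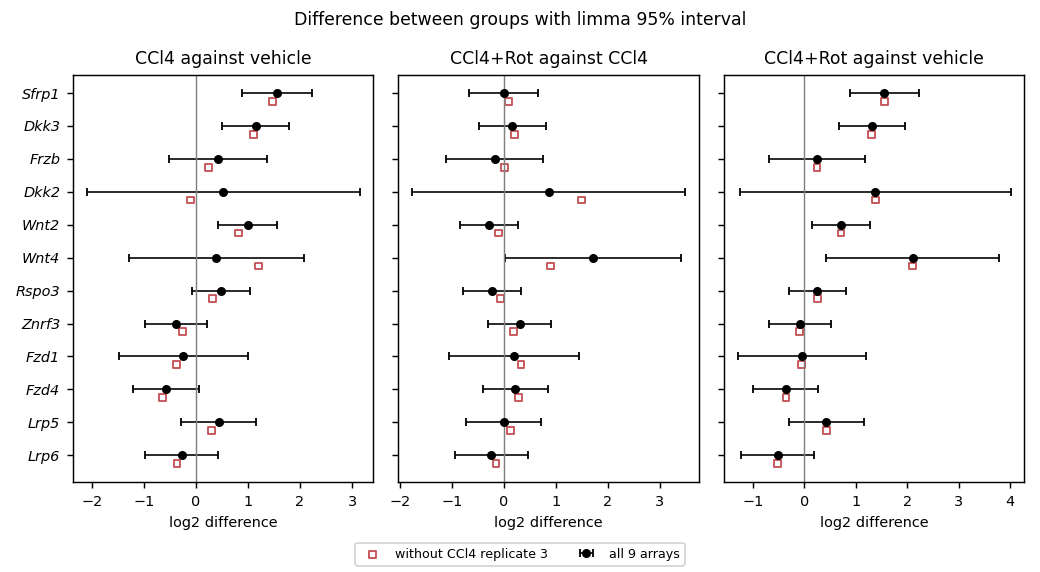
Log2 difference between groups (horizontal axis) with its 95% interval from limma for the same 12 members in each of the 3 comparisons; black points use all 9 arrays and red squares leave out CCl4 replicate 3. The intervals of Sfrp1, Dkk3 and Wnt2 lie above 0 in both comparisons with vehicle, and that of Wnt4 does so in both comparisons of CCl4+Rot, against CCl4 only just.

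Over the whole list, 26 of the 32 members were higher with CCl4 than vehicle, as were 8798 of all 14377 genes. The members' median difference was 0.52 for CCl4 against vehicle, beside 0.13 over all genes. Part of this came with CCl4 replicate 3, since without it the median was 0.19, beside 0.03 over all genes. For CCl4+Rot against CCl4 the median was -0.31 beside -0.05 over all genes, and 0.14 without that array. The 15 undetected members had a CCl4 median of 0.58, close to the 0.55 of all undetected genes, and 14 of the 15 were highest on CCl4 replicate 3. Their median log2 signal was 7.21 on that array and 5.22 to 6.18 on the others. Among the 11 detected members, 3 were highest on it. The detected members had a CCl4 median of 0.42, against 0.02 for all detected genes, and a median for CCl4+Rot against CCl4 of -0.0026, against 0.02. Without CCl4 replicate 3 these medians of the detected members were 0.30 and 0.13, against 0.01 and 0.03 for all detected genes. Centring each array on its median shifted the CCl4 median over all genes by -0.36 and took the members that were higher from 26 to 23. Fzd2 belongs to the undetected members: it passed an unadjusted limma p of 0.05 for CCl4 while called absent on all 9 arrays, so it has no fold.

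A Frizzled-8 probe set is described here after its values were seen. It names both Fzd8 and a Frizzled-8-like locus (LOC100909849), so reads of these near-identical genes cannot be told apart and it is no member. It was called present on all arrays and read 11.27, 11.24 and 11.25 with vehicle, 10.47, 10.78 and 10.39 with CCl4, and 11.34, 10.90 and 10.97 with CCl4+Rot. The CCl4 arrays lay below all others. The difference was -0.71 ± 0.186 (SE) for CCl4 against vehicle, with an adjusted p of 0.251 by limma and 0.0440 by the robust fit. CCl4+Rot exceeded CCl4 by 0.52, with an unadjusted p of 0.0247 and an adjusted p of 0.731 by limma.

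Of the other Wnt pathway genes at the membrane or outside the cell, 20 were measured and 9 detected. For CCl4 against vehicle, 4 were higher and 2 lower at an unadjusted limma p below 0.05, against 9.49% and 4.01% of all genes. The median of the 20 was 0.59, and 0.20 without CCl4 replicate 3, beside 0.13 and 0.03 over all genes. Cthrc1, a secreted collagen-associated protein that binds Wnt and Frizzled, passed limma for CCl4+Rot against vehicle with an adjusted p of 0.0427. Without CCl4 replicate 3 that adjusted limma p was 0.0682, so the call was not kept. Cthrc1 was absent on every vehicle array, at 4.93, 4.01 and 5.05, and read 7.65, 8.51 and 8.33 with CCl4 and 8.07, 8.01 and 8.15 with CCl4+Rot. It was at least 11.3-fold above vehicle with CCl4 (adjusted p of 0.0959 by limma, 0.00245 by the robust fit) and rose at least 10.7-fold with CCl4+Rot. Ptk7, a Wnt co-receptor of planar polarity, was at least 3.56-fold and 5.94-fold above vehicle in the same order, passing the robust limma fit in both.

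Lgr4, the receptor of R-spondins, was lowest with CCl4. It read 10.12, 9.99 and 10.15 with vehicle, 9.03, 9.52 and 9.33 with CCl4, and 10.05, 10.02 and 9.68 with CCl4+Rot. The CCl4 arrays lay below all others. The difference was -0.80 ± 0.192 (SE) from vehicle, with an adjusted p of 0.231 by limma and 0.0367 by the robust fit. CCl4+Rot exceeded CCl4 by 0.62, with an unadjusted p of 0.0129 and an adjusted p of 0.724 by limma. Gpc4, a glypican of the cell surface, showed the same order with -0.44 and 0.35. Wls, which carries Wnt proteins to the surface for secretion, exceeded vehicle by 1.02 with CCl4 and by 1.46 with CCl4+Rot, the latter with an adjusted p of 0.0472 by the robust limma fit.

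Inside the cell, 58 pathway genes were measured and 51 detected, and their medians were -0.03 for CCl4 against vehicle and 0.03 for each of the other comparisons. At an unadjusted limma p below 0.05, 5 were higher and 0 lower with CCl4, 0 in either direction between CCl4+Rot and CCl4, and 4 higher and 2 lower between CCl4+Rot and vehicle. Over all genes, the shares higher and lower were 9.49% and 4.01%, 2.1% and 3.4%, and 7.46% and 2.33% in the same order. None of the 58 passed either limma fit. Nkd1, a feedback inhibitor that binds Dishevelled and is itself a Wnt target, read 6.18, 6.22 and 6.01 with vehicle, 6.997, 7.42 and 8.11 with CCl4, and 7.33, 6.95 and 7.10 with CCl4+Rot. Its CCl4 difference was 1.37, and 1.07 without CCl4 replicate 3, with a robust limma adjusted p of 0.0798 over all arrays. The polarity genes Prickle1 and Prickle2 differed by 0.60 and 0.80, and the kinase gene Camk2d by 0.85. Gsk3b, a kinase of the complex that marks beta-catenin for destruction, differed by -0.65 between CCl4+Rot and vehicle (adjusted limma p of 0.489).

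Of the genes known as Wnt targets in liver or elsewhere, 28 were measured, 21 were detected, and the medians were 0.06, 0.17 and 0.20 in the 3 comparisons, beside 0.13, -0.05 and 0.03 over all genes. At an unadjusted limma p below 0.05, 2 were higher and 3 lower with CCl4 than vehicle. Between CCl4+Rot and CCl4, 1 was higher and 0 were lower, and between CCl4+Rot and vehicle, 3 were higher and 0 were lower. The shares of all genes higher and lower were 9.49% and 4.01%, 2.1% and 3.4%, and 7.46% and 2.33% in these comparisons. Cd44, a hyaluronan receptor, was higher with CCl4 by 1.24 (adjusted p of 0.186 by limma, 0.0296 by the robust fit) and read 7.17 to 7.24 with vehicle, 8.30 to 8.60 with CCl4 and 7.98 to 8.70 with CCl4+Rot. Oat, the pericentral ornithine aminotransferase, differed by -1.29 between CCl4 and vehicle (adjusted p of 0.253 by limma, 0.0493 by the robust fit). It read 12.61 to 13.16 with vehicle, 11.29 to 11.70 with CCl4 and 11.67 to 13.01 with CCl4+Rot. Axin2 and Glul, classic targets outside the naming rule and chosen after their values were seen, did not pass: Axin2 differed by 0.75 between CCl4 and vehicle, and Glul, the pericentral glutamine synthetase, by -0.58, both with overlapping groups. Without CCl4 replicate 3, the highest array of Axin2, its difference was 0.40. Znrf3 stands in this list too, with the values given above.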

How the data were processed

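Biotin-labelled cRNA made from the liver RNA of each of 9 rats was read on an Affymetrix rat genome array. The authors deposited log2 signals and detection calls for 31099 probe sets. The submitters' processing notes name MAS5 and affy, with no version. A genome build for the table is not given in the sources used here. The antilogs have a trimmed mean of 500 on each array, so the arrays were scaled before deposit. From the deposited log2 signals, 57 control probe sets were left out and a model of 3 group means was fitted to the other 31042 (limma 3.58.1, R 4.3.3). P-values were Benjamini-Hochberg adjusted over all of them. The robust fit used statmod 1.5.0, and both fits were tested on simulated data. The number of arrays limits the precision. All 32 members matched RefSeq by gene ID, and 31 had the table's chromosome there (Wnt1 is listed on X, and on 7 in RefSeq). Promoters come from RefSeq (GRCr8), and the Wnt4 window starts from a start site inside the gene's outer bounds.

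Members, gene lists and tests were chosen with earlier results of these data known. Members called present on every array of at least 1 group were given array by array. Wnt4 and Dkk2 met this rule only through CCl4+Rot, so their height in that group is not independent of the choice. Of the other lists, genes were named that were present on every array of a group with an unadjusted p below 0.05, at most 8 per list and comparison. Alternatives were quantile normalization, median centring, filters on low signal or calls, fitting 2 groups only, a robust fit with a trend of the spread over signal, array weights, the methods' t-test, other ways to read a gene, the animal number as a block, and each array left out. The robust fit without CCl4 replicate 3 was added after seeing the data. The cholangiocyte marker list is not reported here.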

Additional observations from a re-analysis of the deposited data

How the results depend on the processing

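Every result was recomputed under the alternatives. The members called, 0 by limma, became 2 for CCl4 against vehicle in the robust fit, 4 by the methods' t-test without adjustment and 1 in the robust fit without CCl4 replicate 3, which kept Sfrp1. For CCl4+Rot against vehicle they became 2, 7 and 3 in the same order. Leaving out each array gave 0 in every comparison. Members at an unadjusted p below 0.05 went from 5 to 8 for CCl4 against vehicle when a gene's probe sets were averaged, and ranged from 4 to 13 with each array left out. For CCl4+Rot against CCl4 the count of 1 became 0 with quantile normalization, centring, a fit of 2 groups only or the t-test, 4 with the mean of probe sets, and 0 to 3 with an array left out. For CCl4+Rot against vehicle 5 became 9 with 2 groups only and 3 to 8 with an array left out. The shares of all genes are given above for limma and the robust fit on all 9 arrays. They were not computed for the other alternatives, so these counts show only how the members' own counts moved with the setting. The causes were not tested.

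Of the log2 differences under alternatives, 735 kept their direction and side of the threshold, 16 passed it newly and 38 reversed. For CCl4 against vehicle the reversed values were Dkk2 -0.11 (robust, without CCl4 replicate 3), Lrp5 -0.18 (mean of probe sets) and Wnt4 -0.10 (quantile). For CCl4+Rot against CCl4 they were Dkk3 -0.066 (array weights) and -0.45 (mean of probe sets), Frzb 0.072 (centring) and 0.0053 (robust, without CCl4 replicate 3), Lrp6 0.0034 (centring), Rspo3 0.0045 (quantile) and 0.019 (centring), and Sfrp1 0.24 (centring) and 0.086 (robust, without CCl4 replicate 3). Lrp5 became 0.15 (quantile), 0.24 (centring), 0.50 (mean of probe sets) and 0.13 (robust, without CCl4 replicate 3). With each array left out, the CCl4 difference from vehicle ranged from -0.36 to 2.03 for Dkk2, -0.51 to 0.043 for Fzd1, -0.47 to 0.016 for Lrp6 and -0.076 to 1.20 for Wnt4. CCl4+Rot against CCl4 ranged from -0.64 to 1.74 for Dkk2, -0.083 to 0.37 for Dkk3, -0.62 to 0.091 for Frzb, -0.38 to 0.69 for Fzd1, -0.027 to 0.45 for Fzd4, -0.25 to 0.13 for Lrp5 and -0.28 to 0.17 for Sfrp1. CCl4+Rot against vehicle ranged from -0.62 to 0.45 for Fzd1 and -0.32 to 0.15 for Znrf3.

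Groups share animal numbers only in part, and the rats are different animals. With the number as a random replicate block the consensus correlation was -0.03, the counts of members called stayed at 0, those at an unadjusted p below 0.05 were 5, 1 and 5, and the Sfrp1 difference between CCl4 and vehicle was 1.56. The block changed no call.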

Other observations

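For 21 members both the deposited table and RefSeq give a strand. They were opposite for 3 of them (14.3%), Fzd5, Rspo1 and Wnt7a, all called present on 0 arrays, and for 9.95% of 11147 genes. Over all genes that share differed little by detection, at 9.77% of detected and 10.7% of undetected genes. Lect2, a secreted hepatocyte protein in the list of Wnt targets, was higher with CCl4+Rot than vehicle by 0.91 (unadjusted p of 0.0487, adjusted p of 0.594 by limma). It read 12.17, 11.95 and 11.64 with vehicle, 12.76, 12.85 and 11.42 with CCl4, and 13.02, 12.60 and 12.86 with CCl4+Rot. Without CCl4 replicate 3, Lect2 differed by 0.89 between CCl4 and vehicle and by 0.03 between CCl4+Rot and CCl4. Aldh3a2 differed by -0.64 between CCl4 and vehicle (adjusted p of 0.307 by limma). Ctnnb1, which encodes beta-catenin and was chosen after its values were seen, read 13.35 to 13.59 on all 9 arrays.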
